A study of Mus musculus with 6 samples.

Results

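Respiratory complex I is the proton-pumping NADH dehydrogenase of the inner mitochondrial membrane and the entry point for most electrons of the respiratory chain. It has a matrix arm, in which the N module oxidises NADH and the Q module passes the electrons to ubiquinone, and a membrane arm that pumps protons. Its subunits are encoded partly in the nucleus and partly in mitochondrial DNA, and accessory subunits surround a core shared with bacteria. The developing cortex depends increasingly on oxidative phosphorylation as neurons differentiate.

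The nuclear subunit genes were taken as all rows of the deposited count table whose symbol was Ndufa, Ndufb, Ndufc, Ndufs or Ndufv followed by a number, together with Ndufab1. This gave 37 genes of 45583 rows, of which 23501 had at least 1 count. By their place in the complex, 10 belonged to the N module, 6 to the Q module, 9 to the proximal membrane arm and 11 to the distal membrane arm. Ndufa4 carries a complex I name, but its protein is found with cytochrome c oxidase (complex IV), so counts are also given without it. The rows of the 7 mitochondrially encoded subunits (mt-Nd1 to mt-Nd6 and mt-Nd4l) were at 0 in every library, as were all 37 rows of mitochondrial genes, and were not analysed here.

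The libraries came from the cortex of male fetuses at GD15.5 (gestational day), 3 per group. Their dams had received 50 µg/kg bisphenol A (BPA, a plastic monomer with weak estrogenic activity) from GD10.5 to GD14.5, by subcutaneous injection in ethanol and peanut oil according to the methods, or the vehicle, which the labels give as peanut oil. All fetuses of both groups were of the Cyp19-EGFP strain, in which a bacterial artificial chromosome adds a Cyp19a1 locus with EGFP inserted before its start codon, on the FVB/N background, and the labels call all of them wild type and Sry-positive. The labels do not give the litters, so fetuses of a group may share a dam. The comparison asks whether maternal BPA was accompanied by a difference in cortical transcript levels, here those of complex I.

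Total counts ranged from 3444601 in BPA replicate 3 to 7180835 in vehicle replicate 2, and 3 counts corresponded to 0.422 to 0.875 CPM (counts brought to a common library size, scaled by TMM so that most genes are equal between libraries). All 8 listed markers of cortical neurons and all 8 of radial glia were measured, with summed levels of 6708 to 7467 CPM and 1619 to 1773 CPM. Microglia and endothelium markers summed to 49.6 to 61.3 CPM and 134 to 148 CPM. The 8 ventral telencephalon markers summed to 987 to 1132 CPM in vehicle and 866 to 945 CPM in BPA. The sum of choroid plexus markers stood out in vehicle replicate 2 and BPA replicate 2, at 229 and 366 CPM. Ttr alone was at 195 and 308 CPM in these. The sum was 12.03 to 19.63 CPM in the other 4 libraries, where Folr1 and Aqp1 were each at 0 in 1 library. Otx2 did not follow, at 7.65 CPM in vehicle replicate 1 and 6.76 CPM in vehicle replicate 2, and Kl had only 1 to 4 counts. In whole cortex, fewer cells of a type and less RNA per cell cannot be told apart.

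Several subunit genes have near-identical copies elsewhere in the genome, and these decide how far a short read can be assigned to them. Sequence sharing was measured on the principal mRNA of each gene as the share of its 50-base windows, the read length used, that occurred with at most 2 mismatches in a transcript of another gene. It was under 10% for 19 of the 37 genes and highest for Ndufs3 at 78.4%, Ndufs5 at 56.7%, Ndufb2 at 45.3% and Ndufb11 at 42.0%. Genes that overlap a member at its own position counted as other genes too. One is Smim27, which shares 257 exonic bases with Ndufb6 on the opposite strand. The share is therefore not one of copies elsewhere in the genome alone. The stretches below are shown because they are identical over 50 bases between a subunit gene and its closest copy, so that a read of this length from them cannot be placed by sequence. All lie in coding sequence and come from GENCODE M21 transcripts (GRCm38), written in the sense direction, with nothing capitalised since no base differs.
Ndufs5 (chr4:123715884-123715933, minus strand, exon 2) and BC002163 (chr16:42955777-42955826, plus strand): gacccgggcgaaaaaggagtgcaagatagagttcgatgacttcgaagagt
Ndufs3 (chr2:90902373-90902422, minus strand, exon 4) and Gm12251 (chr11:58393193-58393242, minus strand): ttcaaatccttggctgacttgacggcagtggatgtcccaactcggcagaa
Ndufa12 (chr10:94220787-94220836, plus strand, exon 4) and Gm15920 (chr5:130188722-130188771, plus strand): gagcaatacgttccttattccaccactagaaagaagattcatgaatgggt

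The members with the fewest counts were among those with copies. Ndufs5, an accessory subunit that faces the intermembrane space, had 0, 2 and 1 counts in vehicle and 1, 3 and 0 in BPA. Its annotated processed pseudogene BC002163 had 75, 120 and 72 counts in vehicle and 89, 94 and 41 in BPA. No library held more than 3 counts of Ndufs5, while BC002163 had at least 41 in each. Exact 50-base matches to another gene made up 41.2% of the Ndufs5 windows.

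Ndufb4, an accessory subunit of the distal membrane arm, had 11, 8 and 5 counts in vehicle and 8, 3 and 4 in BPA. Its copy Ndufb4c, which held 37% of its windows exactly, was not analysed here. Ndufs5 and Ndufb4 were the 2 members with too few counts to test. Ndufs3, a core subunit of the Q module, kept 102 to 179 counts beside 28 to 70 of its pseudogene Gm12251. Ndufa12, an accessory subunit of the N module, had 30 to 96 counts, fewer in every library than the 52 to 288 counts of its pseudogene Gm15920. Whether reads with several alignments were counted is not stated in the sources used here, and the part that the copies play in these counts was not tested.

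**Figure D1:**
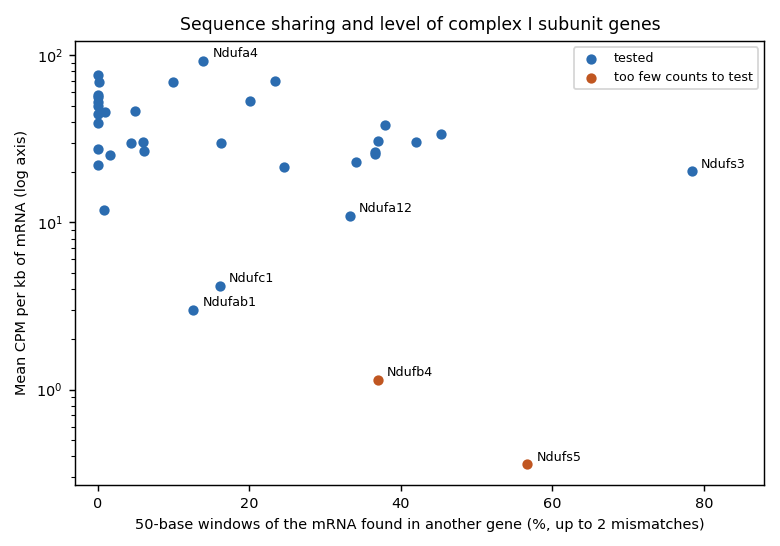
Share of 50-base windows of the principal mRNA found in another gene with up to 2 mismatches (x axis, %) against the mean level over 6 libraries (y axis, CPM per kb of mRNA, log axis), 1 point per gene for 36 of the genes. Ndufs5 and Ndufb4, in orange, had too few counts to test and lie lowest, while Ndufs3, with the highest share at 78.4%, lies at 20.2 CPM per kb.

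Promoter sequences (RefSeq, GRCm38.p6, 250 bases before to 50 bases after the start) were at hand for 33 members and 27025 genes in all. They were searched on both strands for the letters of 6 elements known from nuclear genes of respiration or from estrogen signalling. The YY1 element, in capitals in the first 4 stretches that follow, was found in 4 members (12.1%) and in 0.995% of all genes. The NRF1 core GCATGCGC was found in 3 members (9.09%) and in 3.05% of genes, and 1 of these held the full NRF1 palindrome, in capitals in the Ndufa11 stretch, which contains the core and which 1.07% of genes held. The ETS element CCGGAAGT was found in 1 member (3.03%) and in 4.31% of genes. Neither the ERR element TCAAGGTCA nor the estrogen response element (GGTCA and TGACC with any 3 bases between) was found in a member window, and they occurred in 0.466% and 0.074% of genes. The matches are shown with the element in capitals, in the direction of transcription, and each element's first base is counted from the start as +1.
Ndufa9 (YY1, +30, chr6:126849096-126849125, minus strand): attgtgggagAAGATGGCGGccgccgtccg
Ndufs4 (YY1, +36, chr13:114388045-114388074, minus strand): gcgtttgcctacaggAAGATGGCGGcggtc
Ndufs6 (YY1, +34, chr13:73328433-73328462, minus strand): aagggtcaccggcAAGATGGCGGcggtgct
Ndufs7 (YY1, +25, chr10:80249463-80249492, plus strand): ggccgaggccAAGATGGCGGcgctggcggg
Ndufa11 (NRF1 palindrome, -60, chr17:56717692-56717721, plus strand): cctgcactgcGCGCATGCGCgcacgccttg
Ndufa6 (NRF1 core, -83, chr15:82354356-82354385, minus strand): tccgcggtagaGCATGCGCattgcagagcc
Ndufa8 (NRF1 core, -8, chr2:36049328-36049357, minus strand): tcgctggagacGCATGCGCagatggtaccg
Ndufs3 (ETS on the opposite strand, +1, chr2:90904703-90904732, minus strand): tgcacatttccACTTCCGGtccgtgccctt
In all 4 YY1 matches, the ATG inside the element was the annotated start codon. These are matches of letters only, and binding was not measured.

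Per kb of principal mRNA, the subunit transcripts spanned a 30.7-fold range among the 35 tested. Ndufa4 was highest at 92.4 ± 8.58 CPM per kb (SD, n = 6 libraries), with 98.9, 89.3 and 104 CPM per kb in vehicle and 92.2, 92.5 and 78.4 in BPA. Ndufc2, Ndufb9, Ndufa6 and Ndufb7 lay between 68.9 and 76.5 CPM per kb. The median of the tested members was 30.8 CPM per kb of mRNA. The lowest tested were Ndufab1, the mitochondrial acyl carrier protein, at 3.01 ± 0.313 CPM per kb and Ndufc1, a small membrane arm subunit, at 4.16 ± 1.17. The value of Ndufab1 rests on an annotated mRNA of 3479 bases, and that of Ndufa4 on an annotated mRNA of 610 bases. Per kb of all annotated exonic bases, Ndufa4 was at 40.8 CPM per kb, below Ndufc2 at 69.3 and Ndufa8 at 57.5.

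Neighbours in this order were seldom separated. In 33 of 36 neighbouring pairs the ranges over the 6 libraries overlapped, and the exceptions were Ndufs3 above Ndufs4, Ndufa12 above Ndufc1, and Ndufab1 above Ndufb4. Per kb of all annotated exonic bases, a scale that could be computed for all genes with a length, the median member was at 21.4 CPM per kb and the median of 13126 tested genes at 7.04, and 31 of the 35 members lay above that median. Subunits of the same module differed widely in level per length, as Ndufc2 and Ndufc1 of the proximal membrane arm show at 76.5 and 4.16 CPM per kb of mRNA.

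**Figure D2:**
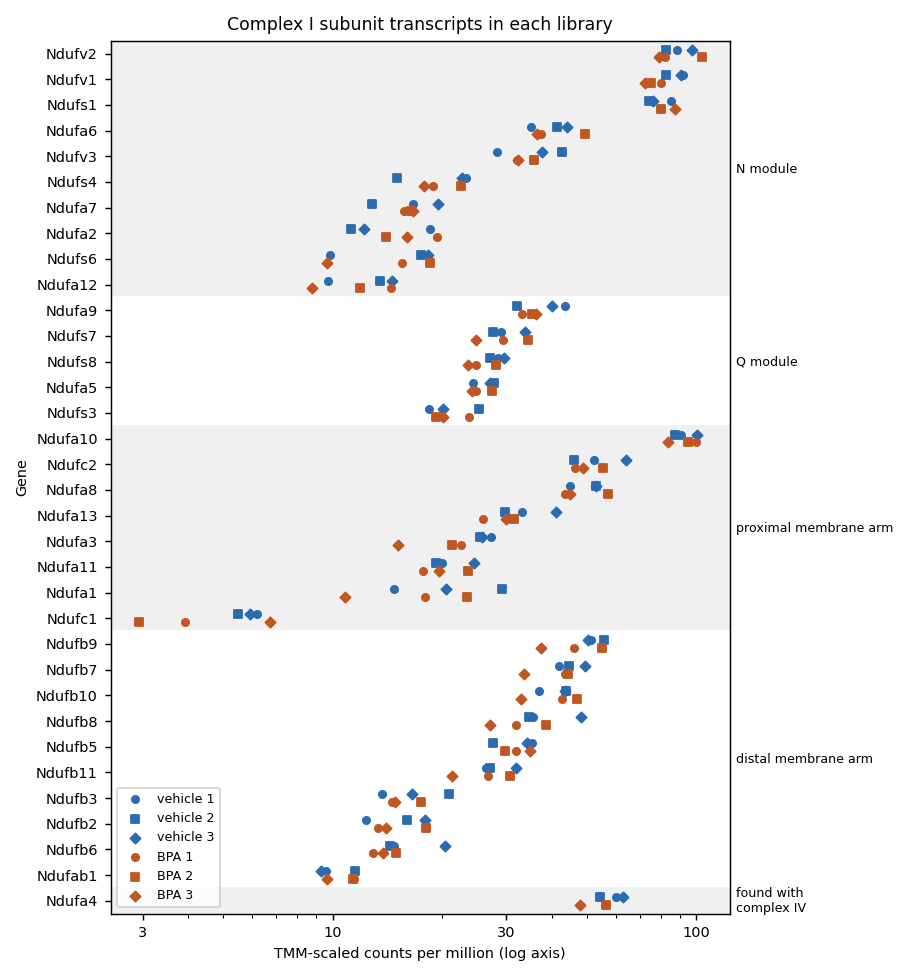
TMM-scaled CPM (x axis, log axis) of 34 of the 35 tested genes in each library, grouped by their place in the complex, with vehicle in blue and BPA in orange and 1 marker shape per replicate number. The 2 groups lie on top of each other for most genes, and only Ndufa3 and Ndufv1 have all 3 BPA libraries below all 3 vehicle libraries. These CPM are not divided by length, so they compare libraries and not genes.

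With BPA, no complex I subunit transcript changed by edgeR's quasi-likelihood test at an adjusted p of 0.1, and the smallest adjusted p of a member was 0.9998. None of the 13741 genes tested passed (0%). Most members nevertheless had a log2 fold change slightly below 0, 29 of 35, beside 49.5% of all genes tested, and without Ndufa4 28 of 34. Their median log2 fold change was -0.06, with quartiles of -0.15 and -0.01, beside a median of 0.00 and quartiles of -0.09 and 0.09 over all genes tested. An unadjusted p under 0.05 was reached by 1 member (2.86%), beside 2.2% of all genes, and the groups did not overlap for 2 members (5.71%), beside 6.75% of all genes. In these cases BPA was lower, beside 1.18% and 3.56% of all genes in that direction. Both shares are near the background in either direction. The members are not independent of each other, since the same 6 libraries carry all of them.

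For most members, the size of a difference was limited by intervals taken 1 gene at a time, with no term for litter. If fetuses of a group share a dam, these intervals may be too narrow. The unadjusted 95% interval of the log2 fold change lay within 1.5-fold in either direction for 30 of the 35 members and within 2-fold for 34, and it included 0 for 34. The exception to the 2-fold bound was Ndufc1, the member with the fewest counts among those tested. Intervals reached from -1.07 at the lowest to 0.66 at the highest over all members.

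The count of members below 0 depended on single libraries. It was 19 of 35 without vehicle replicate 3 and 20 of 35 without BPA replicate 3, and 22 to 30 when another library was left out. With offsets that remove each library's trend over transcript length and GC content it was 23 of 35, with a median of -0.03. With limma-voom it was 24. The 8 ventral telencephalon markers all had a log2 fold change below 0. Of these, 6 did not overlap between groups, beside 6.75% of all genes tested. An unadjusted p under 0.05 in the edgeR quasi-likelihood test was reached by 4, beside 2.2% of all genes. The part of these markers in the levels of the members was not tested.

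**Figure D3:**
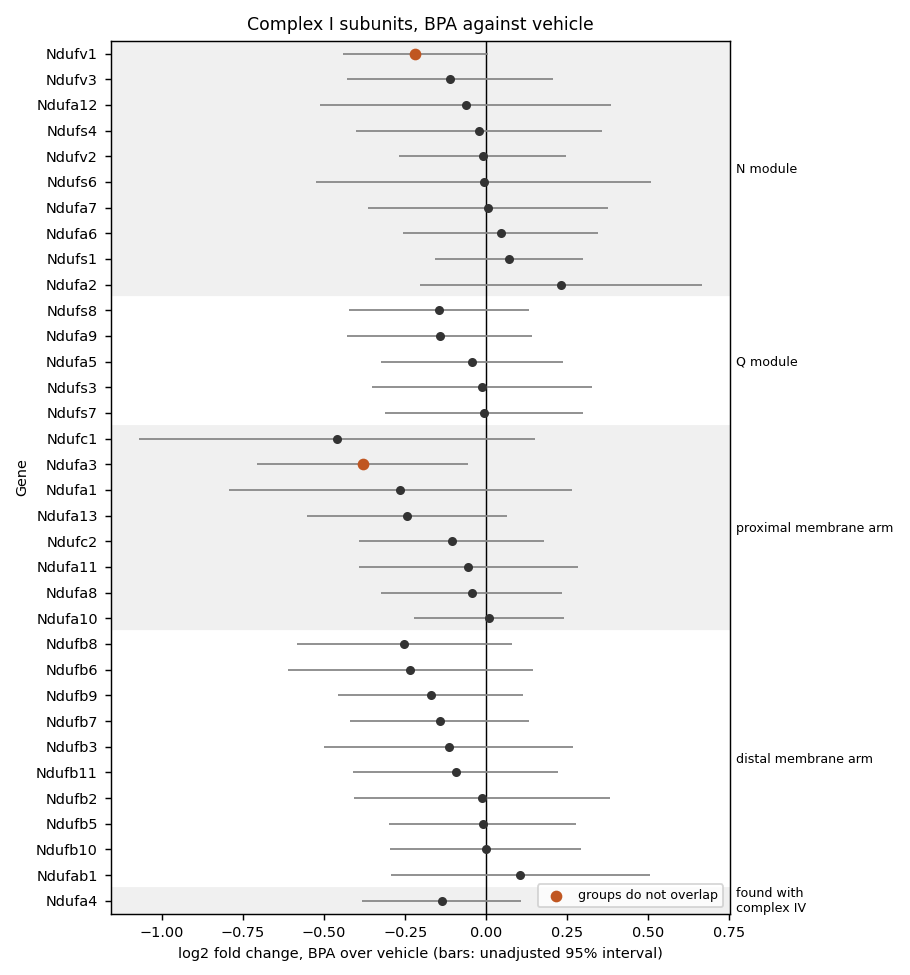
Log2 fold change of BPA over vehicle (x axis) with its unadjusted 95% interval (bars) for 34 of the 35 tested genes, grouped by their place in the complex, and orange for the 2 genes whose groups do not overlap. The points lie between -0.46 (Ndufc1) and 0.23 (Ndufa2), 28 of them below 0, and every interval but that of Ndufa3 includes 0.

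In the N module, 6 of 10 members had a log2 fold change below 0, the median was -0.01 and the range ran from -0.22 to 0.23. Ndufv1 (chr19:4007384-4012806), which binds FMN and takes the electrons from NADH, had 91.9, 82.6 and 90.9 CPM in vehicle and 80.1, 75.1 and 72.4 CPM in BPA. Even the lowest vehicle library exceeded each BPA library. Its log2 fold change was -0.22 (SE 0.106, unadjusted p = 0.0552, adjusted p = 0.9998, edgeR quasi-likelihood test), the 336th smallest p of all genes tested.

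Ndufv2, the iron-sulfur partner of Ndufv1, had 88.4, 82.5 and 97.2 CPM in vehicle and 82.1, 104 and 79.1 CPM in BPA, and the groups overlapped at a log2 fold change of -0.01 (SE 0.122). Ndufs1, the largest core subunit, which carries further iron-sulfur clusters, had 85.2, 74.2 and 75.9 CPM in vehicle and 80.1, 80.3 and 87.2 CPM in BPA. Its log2 fold change was 0.07 (SE 0.108), between 0.03 and 0.13 when 1 library was left out (0.13 without vehicle replicate 1, 0.03 without vehicle replicate 2 or BPA replicate 3), and the groups overlapped. Ndufa2, a thioredoxin-fold accessory subunit, had the highest fold change of all members, 0.23 (SE 0.205, unadjusted p = 0.279), from 18.5, 11.3 and 12.2 CPM in vehicle and 19.3, 13.98 and 16.1 CPM in BPA. Vehicle replicate 1 lay among the BPA libraries for this gene. The accessory subunits Ndufs4, Ndufs6, Ndufa6, Ndufa7, Ndufa12 and Ndufv3 lay between -0.11 and 0.05.

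In the Q module, all 6 members had a log2 fold change below 0, between -0.15 and -0.01 with a median of -0.07, none at an unadjusted p under 0.05 and all with overlapping groups. Ndufs8, which carries iron-sulfur clusters on the way to ubiquinone, had 28.5, 27.2 and 29.6 CPM in vehicle and 24.8, 28.1 and 23.6 CPM in BPA (log2 fold change -0.15, SE 0.131). BPA replicate 2 lay within the vehicle range, and the log2 fold change was -0.23 without it and -0.09 after thinning to equal depth.

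Ndufs7, which carries the last iron-sulfur cluster before ubiquinone, had 29.1, 27.6 and 33.7 CPM in vehicle and 29.4, 34.5 and 24.8 CPM in BPA. Ndufs3, the subunit with the most shared sequence, had 18.4, 25.2 and 20.1 CPM in vehicle and 23.7, 19.2 and 20.1 CPM in BPA. Their log2 fold changes were both -0.01, with SE of 0.144 and 0.160, and their groups overlapped widely. Summed with its copies, Ndufs3 was at -0.05 (SE 0.136). The accessory subunit Ndufa5 was at -0.04 (SE 0.132) and Ndufa9 at -0.14 (SE 0.134).

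The proximal membrane arm had the lowest median, -0.18, with 7 of its 8 tested members below 0 and a range from -0.46 to 0.01. Ndufa3 (chr7:3617373-3620327), a small accessory subunit of the membrane arm, had 27.2, 25.5 and 25.8 CPM in vehicle and 22.6, 21.3 and 15.2 CPM in BPA. All 3 BPA libraries were below the vehicle libraries, which lay close together, and BPA replicate 3 was the lowest. Its log2 fold change was -0.38 (SE 0.153, unadjusted p = 0.0244, adjusted p = 0.9998, edgeR quasi-likelihood test), the 111th smallest p of all genes tested. The log2 fold change was -0.25 without BPA replicate 3, -0.49 without BPA replicate 1 and -0.50 after thinning to equal depth. No window of the Ndufa3 mRNA was found exactly in another gene.

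Ndufc1 had 6.18, 5.49 and 5.92 CPM in vehicle and 3.93, 2.93 and 6.71 CPM in BPA. Its log2 fold change of -0.46 (SE 0.288, unadjusted p = 0.130) was the lowest of all members with the 6 libraries, but BPA replicate 3 was its highest library, and it rests on 18 to 42 counts per library. It was -0.22 without BPA replicate 2, where Ndufa3 was lower at -0.43, and -0.77 without BPA replicate 3. Ndufa13, also known as GRIM-19 and named for a role in cell death, had 33.1, 29.7 and 41.2 CPM in vehicle and 25.9, 31.5 and 30.1 CPM in BPA (log2 fold change -0.25, SE 0.146, unadjusted p = 0.113). The groups overlapped. The log2 fold change was -0.11 without vehicle replicate 3, -0.16 without BPA replicate 1 and -0.16 with length and GC offsets. It was -0.07 after thinning to equal depth, but -0.345 without vehicle replicate 2 and -0.316 without BPA replicate 2. Of its 1251 exonic bases, 375 overlap Tssk6 on the opposite strand, which had 1 to 10 counts. Ndufa10, a member of the nucleoside kinase family, was the 1 subunit of this arm at or above 0, at 0.01 (SE 0.109), and Ndufa1, an X-linked subunit, was at -0.27 (SE 0.249), with 10.8 to 29.3 CPM over the 6 libraries.

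In the distal membrane arm, 9 of 10 tested members were below 0, with a median of -0.11 and a range from -0.25 to 0.10. Ndufb8, an accessory subunit often used as a marker of assembled complex I, had 35.6, 34.8 and 48.1 CPM in vehicle and 32.0, 38.5 and 27.1 CPM in BPA (log2 fold change -0.25, SE 0.156, unadjusted p = 0.125). Ndufb6 had 14.7, 14.4 and 20.3 CPM in vehicle and 12.9, 14.95 and 13.7 CPM in BPA (log2 fold change -0.23, SE 0.178, unadjusted p = 0.209). For both, vehicle replicate 3 was the highest library and BPA replicate 2 lay inside the vehicle range. Without vehicle replicate 3 the log2 fold changes were -0.10 for Ndufb8 and -0.07 for Ndufb6. That of Ndufb8 was -0.40 without BPA replicate 2 and -0.16 without BPA replicate 3. That of Ndufb6 was -0.32 without vehicle replicate 2 and -0.30 without BPA replicate 2.

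Ndufb9, a member of the LYR protein family that binds the acyl carrier protein, had 51.5, 55.9 and 50.3 CPM in vehicle and 46.2, 55.1 and 37.3 CPM in BPA (log2 fold change -0.17, SE 0.134, unadjusted p = 0.220). The log2 fold change was -0.06 without BPA replicate 3, -0.32 without BPA replicate 2 and -0.27 after thinning. The acyl carrier protein Ndufab1 was the 1 member of the arm above 0, at 0.10 (SE 0.188), and at -0.01 when summed with its pseudogene. Ndufb10, at 0.00 (SE 0.139), and Ndufb5, at -0.01 (SE 0.136), lay nearest to 0.

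Ndufa4, outside complex I by its protein, had 60.3, 54.5 and 63.1 CPM in vehicle and 56.2, 56.4 and 47.9 CPM in BPA (log2 fold change -0.14, SE 0.116, unadjusted p = 0.250). BPA replicates 1 and 2 lay inside the vehicle range. The log2 fold change was -0.07 without BPA replicate 3 and -0.195 without vehicle replicate 2.

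The 19 tested members with under 10% of windows shared had a median of -0.05, with 15 below 0, and the 16 with 10% or more had a median of -0.08, with 14 below 0. Windows shared with overlapping genes are included, so this split does not separate members with copies from those without. When counts were summed with those of named copies, Ndufs5 could be tested, at a log2 fold change of -0.01 (SE 0.192, unadjusted p = 0.970). Ndufa12 moved from -0.06 to -0.36 (SE 0.200, unadjusted p = 0.0954) and Gm15920 held most of that sum in every library. Ndufb11 moved from -0.09 to -0.02, while the median over the then 36 members was -0.05, and all summed members had an adjusted p of 0.9998.

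The members tended to be high or low together in the same libraries. As the median deviation from each gene's own mean over the 6 libraries, in log2 CPM, the members stood at -0.03, 0.02 and 0.15 in vehicle and -0.06, 0.08 and -0.13 in BPA. Vehicle replicate 3 was high, with 31 of 35 members above their own mean and 13 at their maximum, and BPA replicate 3 was low, with 5 above their mean and 17 at their minimum. BPA replicate 2 had 24 members above their mean, more than vehicle replicates 1 and 2, with 16 and 20. The 37 genes together made up 0.130%, 0.132% and 0.147% of all counts in vehicle and 0.126%, 0.141% and 0.118% in BPA. Within vehicle, the exact 95% binomial intervals of replicate 1 (0.127% to 0.133%) and replicate 3 (0.144% to 0.151%) did not touch, and within BPA, those of replicate 2 (0.138% to 0.144%) and replicate 3 (0.114% to 0.121%) did not either. These replicates of 1 group thus differed by more than counting error, the 1 kind of error these intervals cover. The groups overlapped.

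Gene groups outside complex I were also high in vehicle replicate 3 or low in BPA replicate 3. In BPA replicate 3 the median deviation was -0.18 for 37 genes of complexes II to V and -0.04 for 65 cytosolic ribosomal protein genes. It was -0.07 for the 3285 tested genes with the shortest exonic length, and 0.05 for the 3282 longest. In vehicle replicate 3 these values were 0.20, 0.13, 0.08 and -0.06. The ribosomal protein genes were not lowest in BPA replicate 3, at -0.042 there beside -0.076 and -0.047 in vehicle replicates 1 and 2. The 8 radial glia and 8 ventral telencephalon markers were at -0.236 and -0.255 in BPA replicate 3. In vehicle replicate 3 they were at -0.012 and -0.001. The tested members had a median exonic length of 1569 bases, beside 4517 over all genes tested. Blood markers summed to 451, 283 and 597 CPM in vehicle and 332, 413 and 351 CPM in BPA, with 6 of 7 markers tested and 5 of these below 0, and Hba-a2 was at 0 in vehicle replicate 2. Markers of pericytes and meninges, of which 5 of 6 were tested and 4 below 0, summed to 101, 108 and 159 CPM in vehicle and 104, 130 and 107 CPM in BPA, with Lum at 0 in vehicle replicate 2. By their sums, both lists were highest in vehicle replicate 3. All 5 tested markers of pericytes and meninges were highest there, but only 3 of the 6 tested blood markers. Hbb-y and Hba-x were highest in vehicle replicate 2 (13.4 and 6.90 CPM) and Alas2 in BPA replicate 2 (20.3 CPM). The part of transcript length and of these cells in the levels of the members was not tested.

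**Figure D4:**
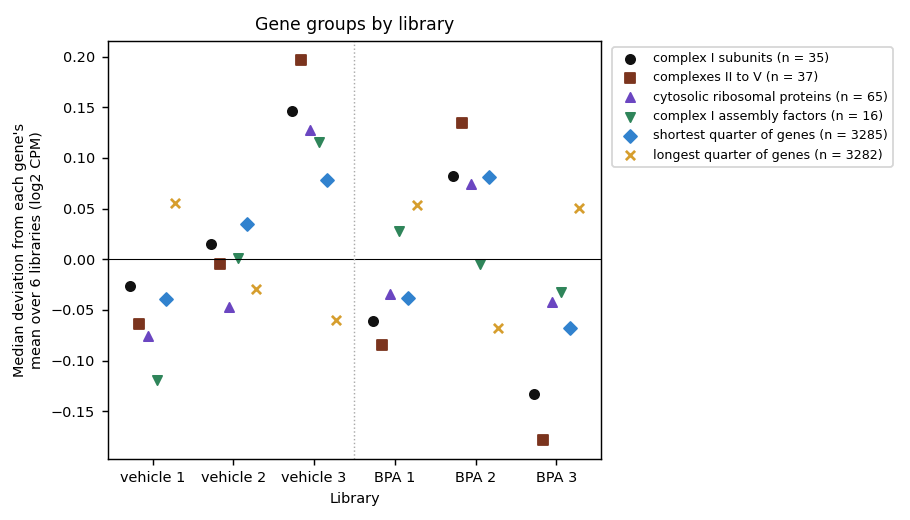
Median deviation of log2 CPM from each gene's mean over the 6 libraries (y axis) for 6 groups of genes in each library (x axis), with the number of genes in the legend. Complex I subunits, complexes II to V and the 3285 shortest genes are high in vehicle replicate 3 and BPA replicate 2 and low in BPA replicate 3, and the 3282 longest genes lie on the other side of 0 in each of these.

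Across the 6 libraries, the median Pearson correlation between 2 members was 0.392 over 595 pairs, and 428 of the pairs (71.9%) were positive. With the mean of the other members, the correlation was positive for 29 of 35. It was highest for Ndufb11 (0.967), Ndufb8 (0.966) and Ndufb7 (0.927), all 3 from the distal arm, and lowest for the N module subunits Ndufs1 (-0.769) and Ndufa2 (-0.646). These correlations describe 6 libraries that share their depth and length trend with every gene, and carry no test. No such value is given here for all genes tested, so whether the members exceed other genes cannot be read from them.

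Other genes of the pathway also had no member past the adjusted threshold. Of the complex I assembly factors, proteins that build the complex but are not part of it, 16 of 18 listed were analysed here and tested, and 8 of these were below 0, with a median of 0.01. Nubpl, which delivers iron-sulfur clusters to complex I, had 2.79, 2.25 and 2.76 CPM in vehicle and 1.099, 1.63 and 2.04 CPM in BPA. The groups did not overlap, at a log2 fold change of -0.76 (SE 0.361, unadjusted p = 0.0515, adjusted p = 0.9998). It rests on 19, 16 and 14 counts in vehicle and 7, 10 and 7 in BPA. Nubpl was the 1 assembly factor without overlap (6.25%), beside 6.75% of all genes tested.

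Of the regulators of nuclear respiration genes, 9 of 10 were tested, 5 below 0, with a median of -0.01. Ppargc1a, the coactivator PGC-1α of mitochondrial biogenesis, had 15.3, 14.8 and 19.7 CPM in vehicle and 13.03, 13 and 14 CPM in BPA, without overlap (log2 fold change -0.31, SE 0.170, unadjusted p = 0.0878, adjusted p = 0.9998). Nrf1, Gabpa (an ETS factor) and Yy1, named for the elements searched above and not for their p, lay at 0.00 (SE 0.114), 0.01 and -0.04.

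Complexes II to V had 37 of 39 listed genes tested, 28 of them below 0, with a median of -0.07, close to that of complex I. The list includes Atpif1, an inhibitor of ATP synthase and not a subunit, at a log2 fold change of -0.14. Of the others, Uqcrc1 was at 0 in every library and Atp5l had 0 to 2 counts. The lowest unadjusted p was that of Atp5g3, a c-ring subunit of ATP synthase, at 81.3, 82.8 and 82.8 CPM in vehicle and 69.3, 59.2 and 51.6 CPM in BPA. All 3 BPA libraries were below vehicle, at a log2 fold change of -0.45 (SE 0.119, unadjusted p = 0.00181, adjusted p = 0.9998). Cox6b1 and Cox7a2 of complex IV were at -0.37 and -0.41, and Cox7c of the same complex, named after its value was seen, at 0.71 with 1.97 to 4.55 CPM over the libraries. In all, 4 of the 37 (10.8%) had an unadjusted p under 0.05, beside 2.2% of all genes tested, none with an adjusted p below 0.9998, and the difference between these complexes and complex I was not tested.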

How the data were processed

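The authors deposited raw counts per gene, with no normalisation. According to the labels and the study's methods, total RNA from cortex gave strand-specific libraries that were sequenced as 50-base single-end reads, aligned to GRCm38 with TopHat2 2.0.14 and counted by featureCounts on GENCODE models. Whether counting used strand or multiply aligned reads is not stated, so genes with copies or antisense partners can gain or lose counts. The results section of the study gives a later age than the labels.

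Counts were analysed in R 4.3.3 with edgeR 4.0.16. Genes passing filterByExpr (minimum count 10, minimum total 15), 13741 with 99.7% of counts, were TMM-scaled and tested, BPA against vehicle, by the quasi-likelihood test with no covariate, and p-values were adjusted over all of them (Benjamini-Hochberg, threshold 0.1, as the study names). Deviations used log2 CPM with a prior count of 2. The p-values measure the spread between fetuses that may share litters, and binomial intervals cover counting error only.

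Members and gene lists were chosen with earlier results of these data known. Members given library by library were the 7 nuclear core subunits, the 8 with the smallest unadjusted p, those without group overlap, the highest and lowest levels per length and those filtered out, and further ones were named after their values were seen. One member, counted in all totals, is not reported here by name or drawn. Lengths, positions and copies came from GENCODE M21, which matched 95.5% of the genes tested, using for each member the best-supported APPRIS principal mRNA. Alternatives were DESeq2 1.42.0, limma-voom (limma 3.58.1), the likelihood ratio test, other scalings and filters, length and GC offsets, thinning to the smallest total and leaving out each library. Summing members with named copies was chosen after seeing the data. The edgeR quasi-likelihood test was also run on simulated counts with known changes.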

Additional observations from a re-analysis of the deposited data

How the results depend on the processing

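No member passed an adjusted p of 0.1 under any of the 17 alternatives, with edgeR, DESeq2 or limma-voom, and the smallest adjusted p of a member was 0.9486, without vehicle replicate 2. At an unadjusted p under 0.05 there were 1 to 3 members. Over all genes, the count ran from 126 of 13741 with DESeq2 to 708 of 13886 without vehicle replicate 2. The median log2 fold change of the members stayed below 0, from -0.17 to -0.02, and was -0.03 with length and GC offsets. When 1 library was left out, 19 to 30 members had a log2 fold change below 0 (19 without vehicle replicate 3, 20 without BPA replicate 3). An unadjusted p under 0.05 was then reached by 1 to 3 members. There were 3 without vehicle replicate 2, beside 708 of 13886 genes, and 3 without BPA replicate 2, beside 563 of 14010. Without vehicle replicate 3 there was 1, beside 194 of 14012 genes. Between 2 and 8 members did not overlap, beside 12.2% to 19.7% of all genes, since fewer libraries overlap less. After thinning to equal depth, 1 member did not overlap, beside 7.53% of all genes. Members near 0 changed sign: Ndufs7 was at 0.001 with limma-voom and 0.04 with length and GC offsets, and Ndufs3 at 0.004 with the offsets and 0.15 after thinning. Leaving out 1 library took Ndufs3 to at most 0.138, Ndufs7 to at most 0.087 and Ndufv2 to at most 0.056, from lows of -0.12, -0.14 and -0.15. The cause was not tested. Over all genes, 0 passed the adjusted threshold in the quasi-likelihood test, where 302 had an unadjusted p under 0.05, 3 passed with DESeq2, 4 with the likelihood ratio test and 19 without a filter, none of them a member. No paired analysis was possible because the replicate numbers were given in accession order and pair no samples. At this depth, Ndufs5 and Ndufb4 had too few counts to test, and Ndufc1 rests on 18 to 42 counts per library.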
